A study of Homo sapiens with 6 samples.

Results

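The mitochondrial ribosome is built from proteins whose genes lie in the nucleus, named MRPL for the large subunit and MRPS for the small subunit. All genes of the deposited expression table whose symbol began with MRPL or MRPS followed by a number were taken. The rule found 78 of the 20036 genes in the table, 49 MRPL and 29 MRPS, spread over 21 chromosomes. RNA was sequenced from KGN, an established human line grown from an ovarian granulosa cell tumour, with 2 libraries in each of 3 groups. Cells were transfected with a control small interfering RNA (siNC) or with one of a pair of siRNAs against OGT mRNA (siOGT1 and siOGT2), and were harvested 48 hours later. OGT encodes the enzyme that attaches N-acetylglucosamine to nuclear and cytosolic proteins. All 6 libraries came from the same line and were handled with the same lipid transfection. A single tumour line, and a knockdown that leaves part of the mRNA, limit what the groups can stand for.

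Mitochondrial ribosomes translate only the messages of the mitochondrial genome, all of which encode subunits of the respiratory chain and ATP synthase. The ribosomal RNAs come from the mitochondrial genome, while every protein is translated in the cytosol, imported and assembled on that RNA. The small subunit threads and decodes the mRNA. The large subunit forms the peptide bond and delivers the chain to the inner membrane. Many of the proteins have bacterial relatives and others exist only in mitochondria. Granulosa cells make steroids, and the first step of that synthesis takes place in mitochondria.

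Levels are fragments scaled to gene length and to the mapped fragments of a library (FPKM), so they are per length and relative to everything else in a library. A lower level of an mRNA from fewer expressing cells and from less RNA per cell cannot be told apart in such bulk samples. OGT stood at 22.4 and 23.4 FPKM under siNC, 13.8 and 12.9 under siOGT1, and 14.3 and 14.7 under siOGT2, which is 58.3% and 63.2% of the siNC mean. The read totals recovered from the values ran from 16801860 to 21478012 per library. A tested MRPL or MRPS gene had between 62 and 4347 reads in a library. Of 13 granulosa markers, 5 reached the minimum for testing, among them FOXL2 (5.32 to 6.25 FPKM over the 6 libraries) and NR5A1 (18.1 to 20.5). FSHR was listed at 0 in all 6 libraries, CYP19A1 in 5 of 6, and AMHR2 and INHA stayed under 0.4 FPKM. None of 7 leukocyte and 4 endothelial markers reached the minimum, and their summed levels were 0.475 to 0.889 and 0.782 to 1.33 FPKM. Of 6 fibroblast and theca markers, 3 were tested, and their sum was 328 and 314 FPKM under siNC against 336 to 363 with the OGT siRNAs. All 3 were called in the mean of both siRNAs against siNC (limma adjusted p under 0.05), COL1A1 higher at 0.10, COL3A1 higher at 0.20 and LUM lower at -0.12 on the log2 scale. The part of those genes in the results was not tested.

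The genes were expressed above the middle of the transcriptome. Genes with a mean of at least 1 FPKM over the 6 libraries were tested, which kept 71 of the 78 (44 MRPL and 27 MRPS) among 10547 genes in all. The median level of the 71 was 15.9 FPKM, against 7.96 over all tested genes. It was 16.8 for the large subunit and 13.7 for the small. MRPS10, of the bacterial S10 family in the head of the small subunit, was highest at 91.6 FPKM. MRPL47 followed at 71.7, then MRPS18B at 65.2, MRPS35 at 61.2 and MRPL51 at 60.8. MRPS18B and MRPS35 belong to the small subunit, and MRPL47 and MRPL51 to the large. The lowest tested levels were those of MRPS5 (1.07 FPKM), MRPS25 (1.44), MRPS17 (2.2), MRPL23 (2.27) and MRPS24 (2.69). MRPS5, at the mRNA entry, and MRPS25 are among 4 genes whose FPKM implied a length over 2 times their exons in GENCODE release 29, with ratios of 2.04 and 3.4. A longer length lowers FPKM, so their levels are uncertain in scale.

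The 7 genes below the minimum were MRPL53, MRPL2, MRPL46, MRPL12, MRPL38, MRPS28 and MRPS18C. MRPL53 was listed at 0 in every library, and the others had means of 0.183 FPKM (MRPL2), 0.304 (MRPL46), 0.47 (MRPL12), 0.504 (MRPL38), 0.567 (MRPS28) and 0.817 (MRPS18C). MRPL12 forms the stalk that recruits translation factors, and MRPL2 lies near the peptidyl transferase centre. Each of the 7 shares exon bases with another gene of the table, from 11.3% of its exons (MRPL46) to 68.2% (MRPL12). Among the 71 tested genes, 27 (38%) share any, and 7 share over 20%. MRPL53 shares 45.2% with CCDC142, which had 2.2 to 2.65 FPKM. The sources used here do not state how reads in shared exons were counted, and its part in these low levels was not tested. A further source of uncertainty is that 34 of the 78 genes have pseudogenes named after them, 75 in all.

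**Figure D1:**
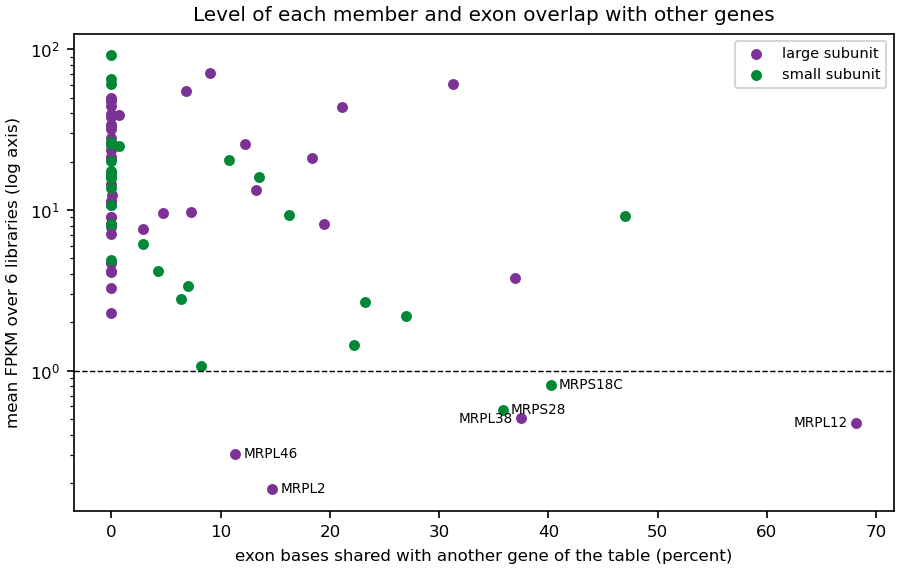
Mean FPKM over the 6 libraries (log axis) against the percent of a gene's exon bases that another gene of the table shares, 1 point per gene with a mean above 0. The dashed line is the minimum of 1 FPKM for testing, and the 6 labelled genes below it all share exon bases; MRPL53, at 0, is not drawn.

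The summed level of both subunits was a few percent higher with the OGT siRNAs, relative to the rest of the transcriptome. The 78 genes summed to 1450 and 1418 FPKM under siNC, 1510 and 1545 under siOGT1, and 1561 and 1578 under siOGT2. All 4 OGT siRNA libraries lay above both siNC libraries. As a share of all FPKM in a library, the sum was 0.725% and 0.716% under siNC, 0.759% and 0.769% under siOGT1, and 0.774% and 0.778% under siOGT2. The MRPL sum was 958 ± 16.2 FPKM under siNC, 1022 ± 16.7 under siOGT1 and 1050 ± 6.76 under siOGT2 (SD, n = 2). The MRPS sum was 476 ± 6.04, 505 ± 8.06 and 519 ± 5.5 FPKM. The ratio of the MRPL to the MRPS sum ran from 2.01 to 2.03 over the 6 libraries, with no group apart. Moving MRPS30 and MRPS18A, which sit in the large subunit in structures, and leaving out MRPS36, now known as a part of the oxoglutarate dehydrogenase complex, gave sums at 107% of siNC for both subunits with siOGT1. With siOGT2 they were at 110% for the large and 109% for the small subunit.

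**Figure D2:**
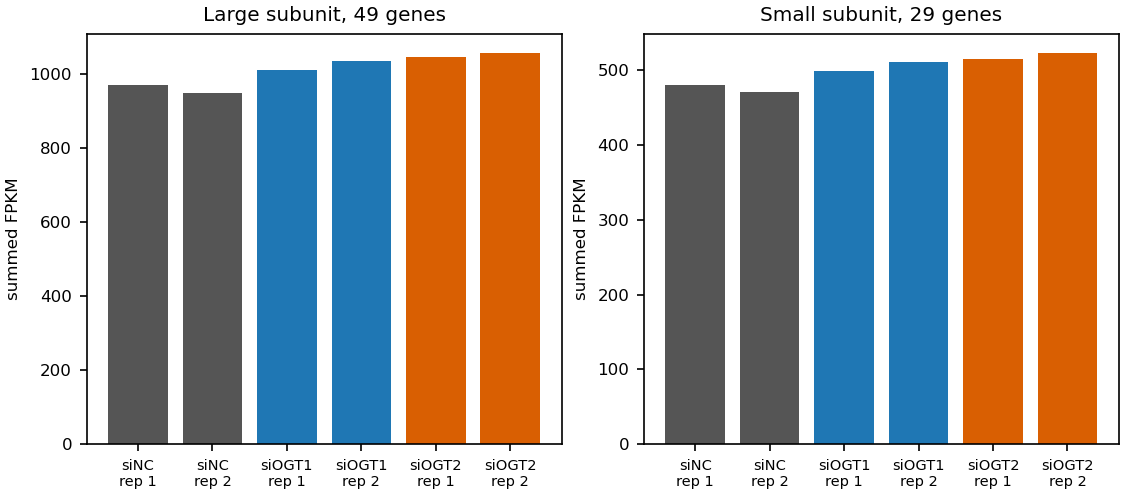
Summed FPKM of the 49 MRPL genes (left) and the 29 MRPS genes (right), 1 bar per library from 0. Both panels show the 4 OGT siRNA libraries above both siNC libraries, with siOGT2 highest.

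Single genes were tested with limma on log2(FPKM + 1), two-sided, and a gene was called where its Benjamini-Hochberg adjusted p, over all 10547 genes, was under 0.05. That scale understates the change of low genes. The p-values measure the spread between these libraries, since separate cultures are not stated. With siOGT1, 13 of the 71 genes were higher and 2 lower, beside 17.6% of all tested genes called, 9.51% higher and 8.1% lower. With siOGT2, 23 were higher and 1 lower, beside 35.5% of all genes, 22.1% higher and 13.4% lower. In the mean of both siRNAs against siNC, 20 were higher and 1 lower, beside 31.1%, 19.4% higher and 11.8% lower. The counts called in either direction (15, 24 and 21 of 71) are thus near the background, and the calls among the MRPL and MRPS genes were mostly rises. An unadjusted p under 0.05 was reached by 23, 35 and 31 of the 71. The contrasts with siOGT1 and siOGT2 share their siNC libraries.

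The median change was 0.07 on the log2 scale with siOGT1, against 0.03 over all tested genes, and 0.11 with siOGT2, against 0.05. The large subunit had medians of 0.07 and 0.12 and the small subunit of 0.06 and 0.1. In the mean of both siRNAs the median was 0.08 for the large and 0.07 for the small subunit, beside 0.04 over all genes. Of the 44 large subunit genes, 9 rose and 1 fell with siOGT1, and 15 rose and none fell with siOGT2. Of the 27 small subunit genes, 4 rose and 1 fell with siOGT1, and 8 rose and 1 fell with siOGT2. The single fall in the large subunit was MRPL52 and that in the small was MRPS24. In 32 of 71 genes (45.1%) all 4 OGT siRNA libraries lay above both siNC libraries, beside 28.4% of all tested genes. In 2 genes, MRPL44 and MRPS24, all 4 lay below, beside 13.3% of all genes.

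Scaling moved the counts more than the direction. Scaled by a trimmed mean of log ratios, the median of all genes moved to 0.00 with siOGT1 and 0.01 with siOGT2, and that of the 71 to 0.04 and 0.07. The calls were then 7 higher and 2 lower with siOGT1, 15 higher and 3 lower with siOGT2, and 13 higher and 1 lower in the mean. Over all genes the calls in the mean turned from 19.4% higher and 11.8% lower to 10.9% and 15.4%. They became 5.17% higher and 9.57% lower with siOGT1, and 13.6% and 17.4% with siOGT2. Single libraries mattered too. Without siNC replicate 2, 6 genes were called with siOGT1, 13 with siOGT2 and 13 in the mean. The calls over all genes fell in parallel, to 9.33%, 21.1% and 15.7%. With siOGT1 the count also fell without siOGT1 replicate 2 or siNC replicate 1, as did the share of all genes called. The medians of the 71 genes were then 0.05 and 0.09, against 0.02 and 0.03 over all genes. Over all alternatives that could be run, 2 of the 15 calls with siOGT1 held in every one, 12 of the 24 with siOGT2 and 10 of the 21 in the mean.

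By gene, 10 rose with each siRNA: MRPL10, MRPL15, MRPL27, MRPL39, MRPL40, MRPL51, MRPL58, MRPS10, MRPS18B and MRPS26. Over all tested genes 7.25% rose with each, and both contrasts rest on the same siNC libraries. Of the 10, 8 lost the siOGT1 call in at least 1 alternative, all but MRPL15 and MRPS26. The losses ran from 1 of 17 alternatives for MRPL51 to 8 of 17 for MRPL10 and 11 of 17 for MRPS10. The siOGT2 call was lost in at least 1 alternative by MRPL10, MRPL15 and MRPS10, so MRPS26 alone kept both calls in all alternatives run. MRPS24 was the gene that fell with each, beside 5.11% of all genes. A rise was called with siOGT1 alone for 3 genes (MRPL13, MRPL41, MRPS33) and with siOGT2 alone for 12 (MRPL3, MRPL9, MRPL18, MRPL24, MRPL33, MRPL42, MRPL45, MRPS14, MRPS15, MRPS18A, MRPS27, MRPS34), beside 2.22% and 14.3% of all genes. A further gene, MRPL52, was called in opposite directions, as were 0.54% of all genes, and 44 were called with neither. Passing with 1 siRNA and not the other does not show a difference between them, which was tested separately.

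**Figure D3:**
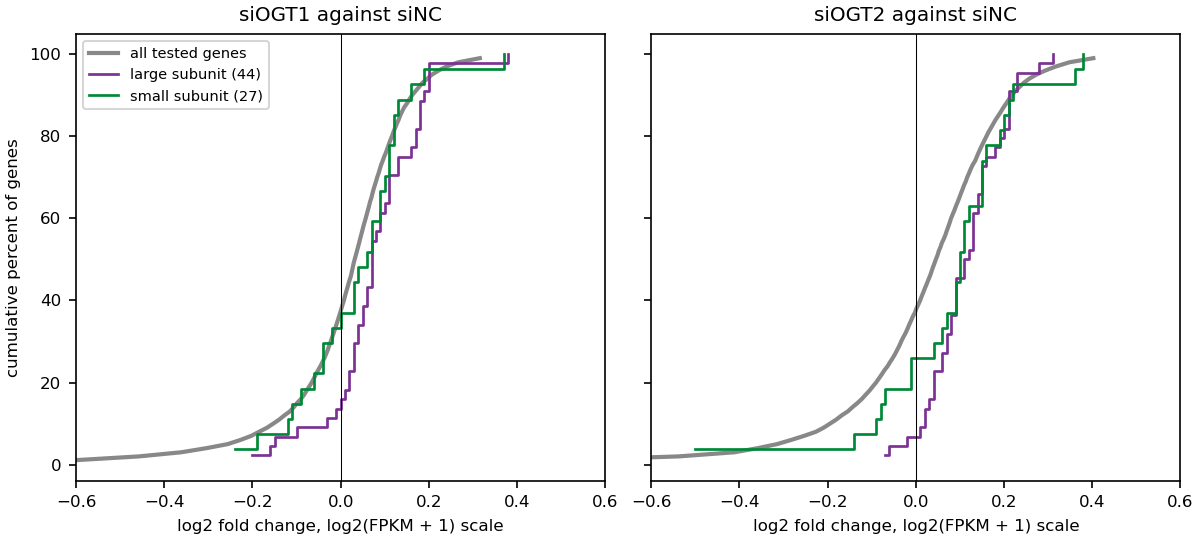
Cumulative percent of genes (vertical axis) by log2 fold change on the log2(FPKM + 1) scale, with siOGT1 (left) and siOGT2 (right) against siNC. Grey is all 10547 tested genes, purple the 44 tested MRPL and green the 27 tested MRPS genes; the coloured curves cross 50% to the right of the grey one in both panels.

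By family, 44 tested genes belong to bacterial ribosomal protein families and 26 were classed as specific to mitochondria, with MRPS36 in neither. The 26 can still have relatives outside ribosomes, as MRPL39 does. In the mean of both siRNAs, 11 of the 44 rose and 1 fell, with a median of 0.08, and 9 of the 26 rose and none fell, with a median of 0.09. Of all tested genes 19.4% were called higher and 11.8% lower in that contrast, with a median of 0.04. The 35 genes above the median level of 15.9 FPKM held 17 of the 20 rises, with a median change of 0.11. The 36 at or below it held 3 rises and 1 fall, with a median of 0.07. Calls were also more frequent at high levels over all genes, with 29.2% called higher above 15.9 FPKM and 15.6% at or below it. Among the 44 tested genes that share no exon with a gene of the table, 14 rose and none fell, and among the 27 that share any, 6 rose and 1 fell. The median was 0.08 in both.

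In the large subunit, several proteins of the central protuberance, the ridge that holds the transfer RNAs, were among the genes that rose. Of the 6 tested genes there, 4 rose in the mean of both siRNAs and none fell, with a median of 0.17, beside 19.4% of all genes higher and 11.8% lower. This group, like the other places in the ribosome used here, was written down with earlier results of these data known. The 8 genes of the protuberance summed to 131 and 127 FPKM under siNC, 143 and 145 under siOGT1, and 150 in both siOGT2 libraries.

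MRPL27, which reaches towards the site of peptide bond formation, stood at 10.1 and 9.61 FPKM under siNC, 11.4 and 11.1 under siOGT1, and 12.3 and 12.6 under siOGT2. The 3 groups did not overlap, and siOGT2 was highest. Its log2 change was 0.31 with siOGT2 (SE 0.0422, limma adjusted p = 0.000676) and 0.18 with siOGT1 (SE 0.0422, limma adjusted p = 0.0197). The siOGT1 call ended with the trimmed mean of log ratios, without siNC replicate 2 and without either siOGT1 library. MRPL58, a peptidyl-tRNA hydrolase that has become a part of the ribosome and can free stalled chains, stood at 40.9 and 38.2 FPKM under siNC, 44.1 and 47.4 under siOGT1, and 49.5 and 46.7 under siOGT2. All 4 siRNA libraries were above both controls, and those of siOGT1 and siOGT2 overlapped. Its mean change was 0.24 (SE 0.0412, limma adjusted p = 0.0026). MRPL40, found only in mitochondria, stood at 24.5 and 26.2 FPKM under siNC, at 29.1 in both siOGT1 libraries, and at 28.9 and 30.8 under siOGT2. All 4 siRNA libraries lay above both controls, and its mean change was 0.21 (SE 0.0371, limma adjusted p = 0.00289). For these 3 genes the mean call held in all 16 alternatives run. MRPL18, of the bacterial L18 family, rose by 0.12 in the mean (limma adjusted p = 0.0203), a call lost without siNC replicate 2 (0.212) or siOGT2 replicate 1 (0.0508). Over all alternatives the MRPL18 call in the mean was lost in 5 of 16. The other tested genes of the protuberance were MRPL48 (mean change 0.04) and MRPL55 (-0.02), which were not called in the mean.

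Around the exit of the peptide tunnel, 2 of 6 tested genes (MRPL24 and MRPL45) rose with siOGT2, beside 22.1% of all genes. None was called with siOGT1 or in the mean of both siRNAs by limma, and in the mean 2 had an unadjusted p under 0.05. The others were MRPL22, MRPL23, MRPL44 and MRPL47. MRPL24, of the bacterial L24 family, was at 47.1 and 40.8 FPKM under siNC, 45.1 and 50 under siOGT1, and 49.5 and 52.4 under siOGT2. Its siOGT1 libraries overlapped both other groups. The change with siOGT2 was 0.21 (limma adjusted p = 0.0359), a call lost in 6 of 17 alternatives. These were no low-value filter, the trimmed mean, no intensity trend, and leaving out siNC replicate 2 or either siOGT2 library. MRPL45, which tethers the ribosome to the inner membrane, was at 47.8 and 48.5 FPKM under siNC, 49.5 and 49.2 under siOGT1, and 51.1 and 51.7 under siOGT2. The groups did not overlap, yet the change with siOGT2 was 0.09 (limma adjusted p = 0.0369). The call was lost in 9 of 17 alternatives. Among them were the trimmed mean, no intensity trend, the replicate block and recovered reads. It also ended without either siNC or either siOGT2 library. MRPL44, at the same rim, was the large subunit gene that lay below both controls in all 4 siRNA libraries, at 32.8 and 32.4 FPKM under siNC, 32.1 and 31.7 under siOGT1, and 30.4 and 31.6 under siOGT2. Its mean change of -0.05 did not pass (limma adjusted p = 0.238).

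Of the stalk proteins, which contact transfer RNA and translation factors, MRPL10 rose and MRPL1 and MRPL11 did not pass. MRPL10, at the base of the factor-binding stalk, was at 20.4 and 19.7 FPKM under siNC, 22.1 and 21.9 under siOGT1, and 22.8 and 22.2 under siOGT2, all 4 above the controls. The change was 0.14 in the mean (SE 0.0309, limma adjusted p = 0.00776), and this call ended without siNC replicate 2 (adjusted p = 0.0852).

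Elsewhere in the large subunit, MRPL51, MRPL39 and MRPL15 rose in the mean of both siRNAs, and these 3 calls held in every alternative. MRPL51, found only in mitochondria, was at 55.6 and 55.1 FPKM under siNC, 61.8 and 64.0 under siOGT1, and 62.3 and 66.0 under siOGT2. All 4 siRNA libraries lay above both controls, and the mean change was 0.20 (SE 0.0312, limma adjusted p = 0.00178). MRPL39, a relative of threonyl-tRNA synthetases, was at 35.6 and 36.2 FPKM under siNC and between 40.4 and 43.2 in the siRNA libraries, a mean change of 0.19 (SE 0.0317, limma adjusted p = 0.00218). MRPL15, of the bacterial L15 family, was at 35.3 and 34.2 FPKM under siNC, 39.5 and 40.6 under siOGT1, and 39.0 and 38.0 under siOGT2. It is one of 2 genes, with MRPS26, whose siOGT1 call held in every alternative, with a change of 0.20 (SE 0.0339, limma adjusted p = 0.0037).

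MRPL41 had the largest change with siOGT1 among the 71 genes and the largest standard error. It was at 13.0 and 16.4 FPKM under siNC, 17.5 and 21.3 under siOGT1, and 16.5 and 16.1 under siOGT2. The siOGT1 libraries lay above both controls, and siOGT2 overlapped the controls. In FPKM the SD was 2.43 under siNC and 2.69 under siOGT1. The FPKM of MRPL41 implied a length of 0.461 of its exons, so its level is uncertain in scale. The change with siOGT1 was 0.38 (SE 0.103, limma adjusted p = 0.033). The call was lost in 8 of 17 alternatives. Among them were no low-value filter, the trimmed mean, no intensity trend and a fit to only the groups compared. It also ended without siNC replicate 1, siOGT1 replicate 2 or either siOGT2 library. MRPL13, of the bacterial L13 family, was called with siOGT1 only among the 2 siRNAs, at 0.20 (limma adjusted p = 0.0168). That call was lost with no low-value filter and without siNC replicate 2 or siOGT1 replicate 2. The MRPL13 difference between the siRNAs, 0.08, did not pass (limma adjusted p = 0.298).

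**Figure D4:**
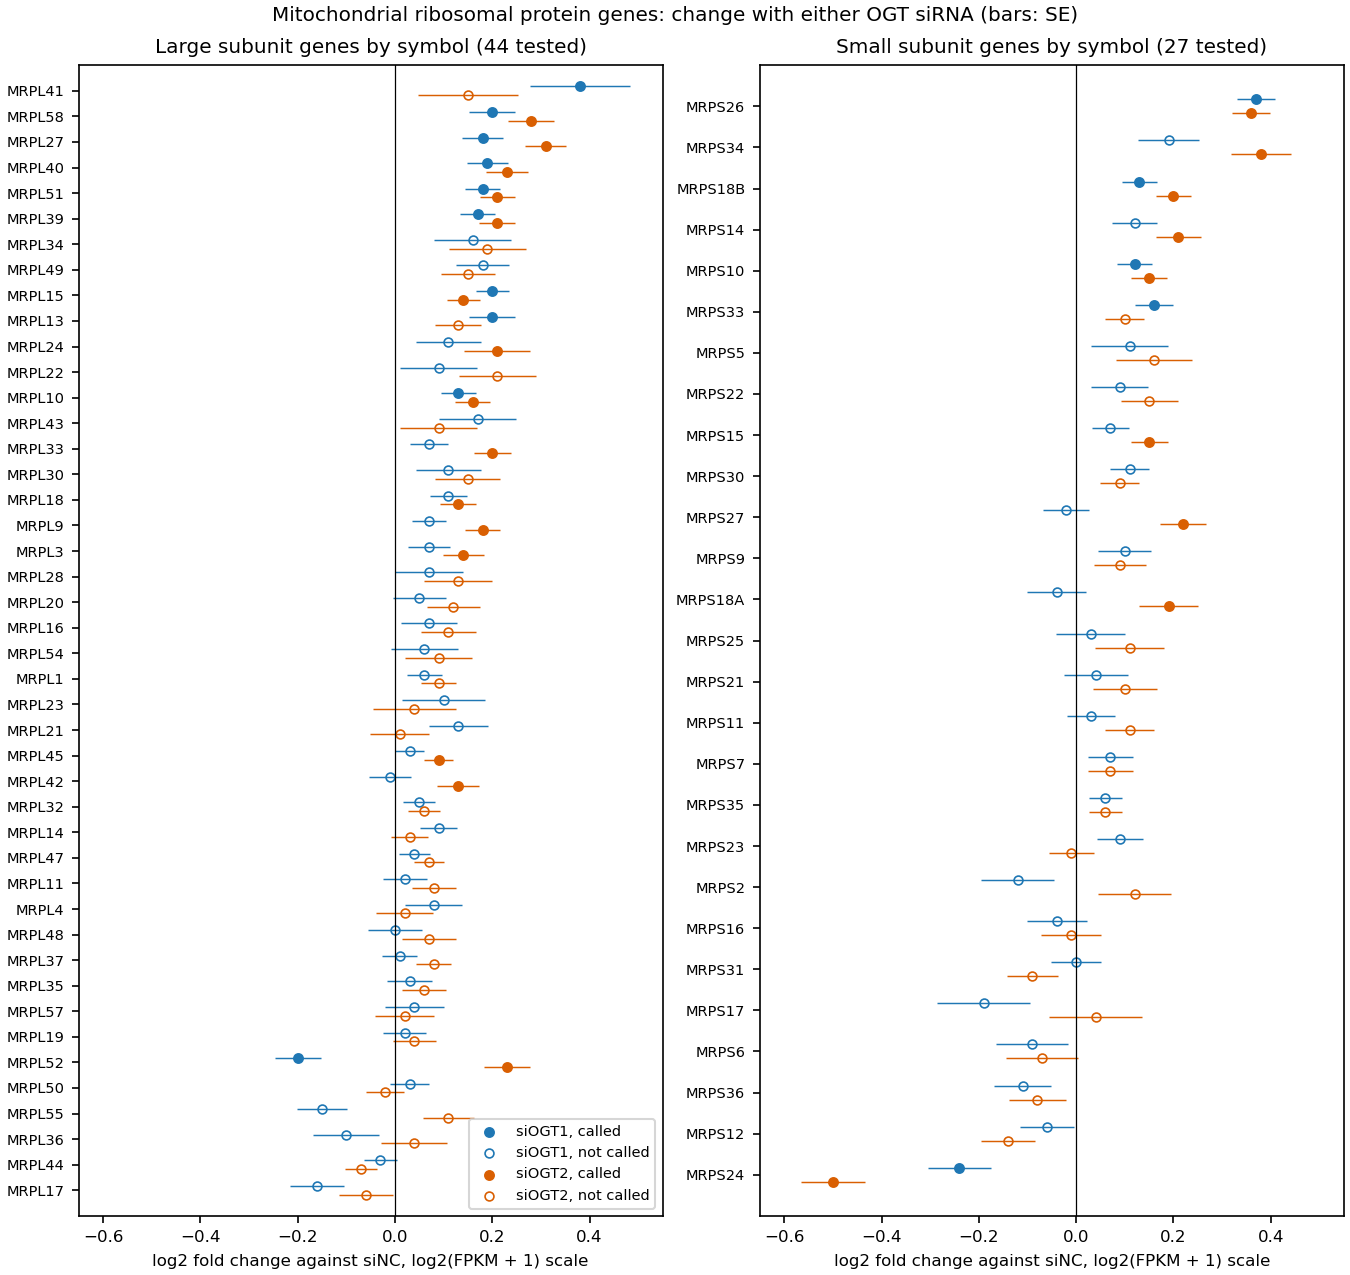
Log2 fold change against siNC of the 44 tested MRPL genes (left) and 27 tested MRPS genes (right), with siOGT1 in blue and siOGT2 in orange; bars are 1 SE of the limma fit, and filled points passed at an adjusted p under 0.05. Genes are ordered by the mean of both siRNAs, from MRPL41 and MRPS26 at the top to MRPL17 and MRPS24 at the bottom.

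In the small subunit, MRPS26 had the largest rise of the 71 genes in the mean of both siRNAs and MRPS24 the largest fall. MRPS26, a protein found only in mitochondria (ENSG00000125901, chromosome 20, 3045945 to 3048254, plus strand, GRCh38 by GENCODE release 29), was at 13.7 and 13.3 FPKM under siNC, 18.2 and 17.4 under siOGT1, and 17.6 and 17.7 under siOGT2. Both siRNAs brought it to the same level, about 130% of siNC (132% and 130%). The change was 0.37 with siOGT1 (SE 0.0387, limma adjusted p = 0.000209) and 0.36 with siOGT2 (SE 0.0387, limma adjusted p = 0.000159). The call held in every alternative for each siRNA. The difference between them was 0.01 (limma adjusted p = 0.844).

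MRPS34 (ENSG00000074071, chromosome 16, 1771890 to 1773155, minus strand), which the small subunit needs to be stable, was at 24.1 and 20.7 FPKM under siNC, 25.3 and 26.1 under siOGT1, and 30.3 and 28.5 under siOGT2. The groups did not overlap and stood in the order siNC, siOGT1, siOGT2. The change was 0.38 with siOGT2 (SE 0.0624, limma adjusted p = 0.0018) and held in every alternative. The siOGT1 change of 0.19 did not pass (limma adjusted p = 0.0644), nor did the difference between the siRNAs, -0.19 (limma adjusted p = 0.0721).

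MRPS24 (ENSG00000062582, chromosome 7, 43866558 to 43869893, minus strand) is the relative of bacterial S3, at the mRNA entry. It was at 3.39 and 3.28 FPKM under siNC, 2.75 and 2.6 under siOGT1, and 1.93 and 2.2 under siOGT2. The groups fell in steps without overlap, to 80.2% of siNC with siOGT1 and 61.8% with siOGT2. The change was -0.50 with siOGT2 (SE 0.065, limma adjusted p = 0.000495), which held in every alternative. With siOGT1 it was -0.24 (SE 0.065, limma adjusted p = 0.0333), and the call ended without either siNC library (adjusted p = 0.154 and 0.105) or either siOGT1 library (0.071 and 0.152). The siOGT1 call was also lost with no low-value filter and on recovered reads, as was the difference between the siRNAs. MRPS24 rests on 91 to 178 reads per library. It shares 23.2% of its exons with the readthrough gene URGCP-MRPS24, listed at 0 in all 6 libraries, and reads of the 2 cannot be told apart in those exons. URGCP, upstream, was at 23.5 to 26.6 FPKM and was not called.

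The other tested genes on the path of the mRNA, MRPS5, MRPS7, MRPS9, MRPS11 and MRPS12, did not pass with either siRNA. MRPS12, in the decoding centre, had the lowest of their mean changes, -0.10 (limma adjusted p = 0.154). This group was put together after its values had been seen.

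MRPS10 and MRPS18B, the most abundant small subunit genes, rose in the mean of both siRNAs. MRPS10 was at 87.0 and 84.7 FPKM under siNC, 90.3 and 96.7 under siOGT1, and 95.6 and 95.7 under siOGT2, all 4 above the controls. The mean change was 0.14 (SE 0.0315, limma adjusted p = 0.0105), a call lost without siNC replicate 2 (adjusted p = 0.102). The siOGT1 call of MRPS10 was lost in 11 of 17 alternatives. MRPS18B is one of 3 human relatives of bacterial S18. MRPS18B was at 60.5 and 59.9 FPKM under siNC, 65.5 and 66.9 under siOGT1, and 67.2 and 71.6 under siOGT2, a mean change of 0.17 (SE 0.0309, limma adjusted p = 0.00362) that held in every alternative. MRPS18A, which lies in the large subunit, was at 9.46 and 8.18 FPKM under siNC, 8.59 and 8.5 under siOGT1, and 10.4 and 9.95 under siOGT2. Its siOGT1 libraries lay between the controls. The change with siOGT2 was 0.19 (limma adjusted p = 0.0368), lost without siNC replicate 2 (0.241) or either siOGT2 library (0.16 and 0.0805). Over all alternatives that call was lost in 9 of 17, and the difference of MRPS18A between the siRNAs in 7 of 17. Both were lost with no low-value filter, with no intensity trend and on recovered reads. MRPS18A had 73 to 88 recovered reads per library, and its FPKM implied a length of 0.36 of its exons. MRPS18A shares 47% of its exons with RSPH9, which stood at 0.146 to 0.301 FPKM. MRPS18C was at 0.664 to 0.957 FPKM and was not tested.

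**Figure D5:**
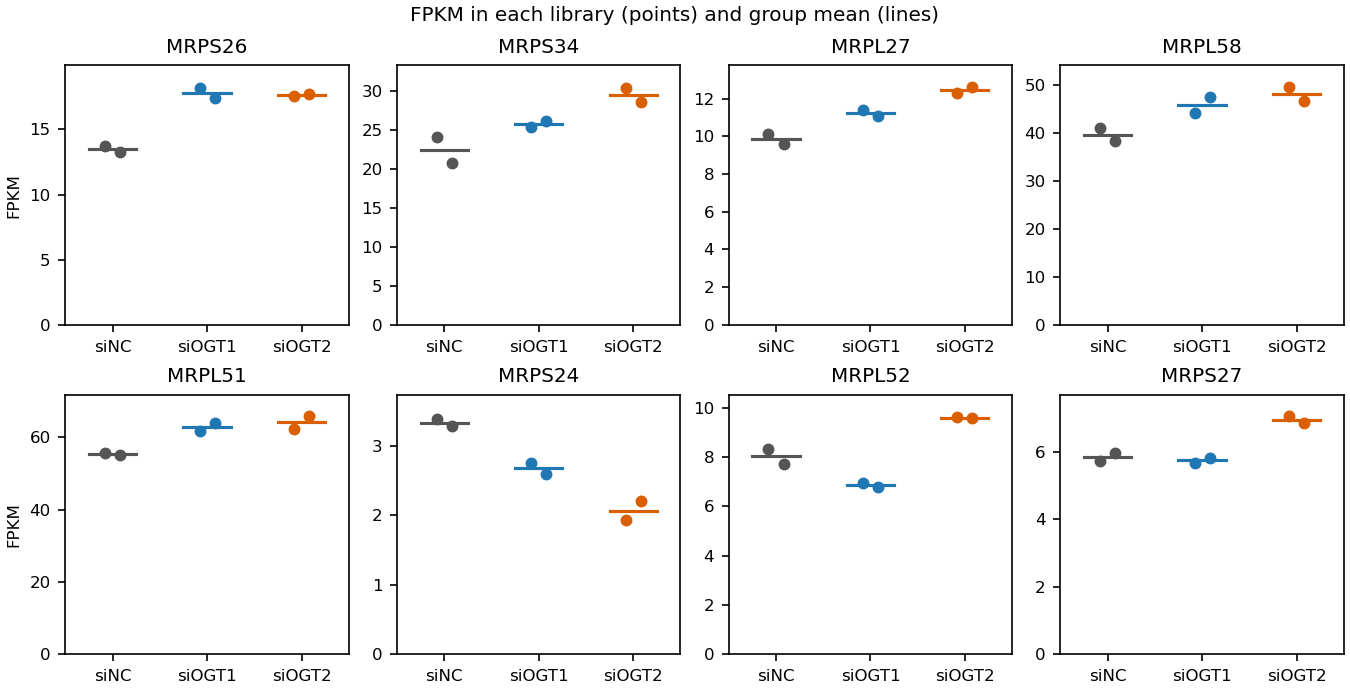
FPKM of 8 genes in each library (points) with group means (lines), axes from 0. MRPS26 stands at one raised level with both siRNAs, MRPS24 falls in steps, and MRPL52 and MRPS27 differ between siOGT1 and siOGT2.

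The siRNAs differed from each other at 6 of the 71 genes, 1 higher and 5 lower with siOGT1 than with siOGT2. Over all genes 16.6% were called in that contrast, 8.35% higher and 8.24% lower. Leaving out siOGT1 replicate 1 or either siOGT2 library lowered both the count and the share of all genes called. The median difference was -0.03, against -0.01 over all genes, and 12 of the 71 had an unadjusted p under 0.05. The large subunit had 3 of the 44 lower and none higher, and the small subunit 2 lower and 1 higher of 27.

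MRPL52 (ENSG00000172590, chromosome 14, 22829879 to 22835037, plus strand), a large subunit protein found only in mitochondria, was the gene called in opposite directions. It was at 8.34 and 7.74 FPKM under siNC, 6.95 and 6.79 under siOGT1, and 9.62 and 9.58 under siOGT2. The controls lay between the 2 siRNAs, with no overlap. The difference between siRNAs was -0.43 (SE 0.0473, limma adjusted p = 0.000337), and it held in every alternative. The rise with siOGT2 was 0.23 (SE 0.0473, limma adjusted p = 0.00552), held in every alternative. The fall with siOGT1 was -0.20 (SE 0.0473, limma adjusted p = 0.0192), a call lost in 4 of 17 alternatives. These were no low-value filter and leaving out siNC replicate 1 or either siOGT1 library.

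MRPS27, which belongs to the family of pentatricopeptide repeat proteins that bind RNA, was at 5.71 and 5.95 FPKM under siNC, 5.67 and 5.81 under siOGT1, and 7.05 and 6.84 under siOGT2. The siOGT1 libraries overlapped the controls and the siOGT2 libraries lay above all others. The difference between siRNAs was -0.24 (SE 0.0472, limma adjusted p = 0.00916), lost without siOGT1 replicate 1 (0.0502) or siOGT2 replicate 1 (0.0588). MRPL55, of the bacterial L31 family, was at 4.13 and 4.3 FPKM under siNC, 3.69 and 3.74 under siOGT1, and 4.53 and 4.75 under siOGT2. Neither siRNA passed against siNC, and the difference between them did, at -0.26 (SE 0.0522, limma adjusted p = 0.00953), lost without siOGT2 replicate 2 (0.0711). The MRPL55 difference was also lost on recovered reads. The other 3 differences were MRPS24 at 0.26, MRPS18A at -0.23 and MRPL33 at -0.13, with limma adjusted p = 0.0232, 0.0313 and 0.0429. MRPL33 was at 40.3 and 42.1 FPKM under siNC, 42.2 and 44.2 under siOGT1, and 46.4 and 48.5 under siOGT2. Over all alternatives the MRPL33 difference was lost in 11 of 17. Without 1 library, the adjusted p of those 3 reached 0.128, 0.148 and 0.232, the calls ending without either siOGT1 library or siOGT2 replicate 1 for MRPS24, without any of the 4 siRNA libraries for MRPS18A, and in every case but that of siOGT1 replicate 2 for MRPL33.

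Promoters are shown for MRPS26 and MRPS34, the largest rises in the mean of both siRNAs, for MRPS24, the fall with both, and for MRPL52, the gene with opposite calls, since these 4 moved in different ways. The windows run from 250 bases before to 50 after the transcription start in RefSeq (GRCh38.p14), 5′ to 3′ on the gene's strand. They are chr20:3045802-3046101 (plus) for MRPS26, chr16:1773085-1773384 (minus) for MRPS34, chr7:43869468-43869767 (minus) for MRPS24 and chr14:22829637-22829936 (plus) for MRPL52. Capitals mark exact matches on either strand to 1 of 3 short motifs: CGCATGCG of NRF1, CCGGAAGT of ETS factors such as GABP, and AAGATGGCG of YY1. These factors are known regulators of nuclear genes for mitochondria. Matches do not overlap each other in these windows.
MRPS26: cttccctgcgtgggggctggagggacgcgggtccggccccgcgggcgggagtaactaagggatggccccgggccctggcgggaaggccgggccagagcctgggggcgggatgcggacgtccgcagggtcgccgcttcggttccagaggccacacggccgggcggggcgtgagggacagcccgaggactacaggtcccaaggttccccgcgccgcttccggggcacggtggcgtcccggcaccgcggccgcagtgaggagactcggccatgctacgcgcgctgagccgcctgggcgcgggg
MRPS34: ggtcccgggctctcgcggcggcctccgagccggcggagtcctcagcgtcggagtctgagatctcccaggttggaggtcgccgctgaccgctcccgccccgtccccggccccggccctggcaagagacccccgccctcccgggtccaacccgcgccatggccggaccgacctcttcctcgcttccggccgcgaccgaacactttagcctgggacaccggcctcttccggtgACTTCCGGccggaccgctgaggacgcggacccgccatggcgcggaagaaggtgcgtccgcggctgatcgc
MRPS24: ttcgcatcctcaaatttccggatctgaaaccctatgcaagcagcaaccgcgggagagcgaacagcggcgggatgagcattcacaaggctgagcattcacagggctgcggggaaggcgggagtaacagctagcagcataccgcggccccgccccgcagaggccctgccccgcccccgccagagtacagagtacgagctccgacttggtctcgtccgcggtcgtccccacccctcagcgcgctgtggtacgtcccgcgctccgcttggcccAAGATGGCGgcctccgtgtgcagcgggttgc
MRPL52: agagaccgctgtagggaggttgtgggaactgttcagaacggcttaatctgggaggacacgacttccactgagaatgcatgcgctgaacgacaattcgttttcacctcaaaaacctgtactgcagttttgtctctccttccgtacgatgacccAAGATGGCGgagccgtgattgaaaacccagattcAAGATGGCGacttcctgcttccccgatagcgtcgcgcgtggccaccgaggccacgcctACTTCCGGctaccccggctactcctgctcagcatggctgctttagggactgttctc
MRPS26 held none of the motifs, MRPS34 held the ETS motif on the opposite strand, MRPS24 held the YY1 motif just after its start, and MRPL52 held the YY1 motif 2 times and the ETS motif once.

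RefSeq windows were found for 69 of the 78 genes, 85 windows in all, and 27 of them held at least 1 of the motifs. The ETS motif was in 16.5% of the 85 windows, against 7.9% of the windows of tested genes and 4.14% of all 35116 windows. The YY1 motif was in 15.3%, against 3.69% and 1.75%. The NRF1 motif was in 3.53%, against 3.44% and 2.02%. Of 21 windows of genes that rose in the mean of both siRNAs, 4 held the ETS motif, 2 the YY1 motif and 0 the NRF1 motif. Of 58 windows of genes not called, 8 held the ETS motif, 8 the YY1 motif and 2 the NRF1 motif.

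Neighbours that start within 1000 bases on the opposite strand, on either side of the gene's start, did not always move with the ribosomal gene. There were 29 genes with such a partner. MRPS18B rose by 0.17 in the mean of both siRNAs, and its partner PPP1R10, a phosphatase regulator, changed by -0.38. The distance between those starts was -903 bases, with PPP1R10 starting inside MRPS18B, so that pair overlaps. The other partners named here start 6 to 63 bases before the ribosomal gene. MRPL27 rose by 0.24 and EME1, a subunit of a DNA nuclease, changed by -0.25 and stood at 1.28 FPKM. MRPL36 was at -0.03 and was not called, while NDUFS6, a subunit of respiratory complex I, changed by 0.34. MRPL18 and TCP1, a chaperonin subunit, both passed with siOGT2, at 0.13 and 0.12 (limma adjusted p = 0.0261 and 0.018). These pairs were named after their values had been seen.

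The other genes of mitochondrial translation were taken from lists of textbook members. Of 5 proteins of the mitochondrial ribosome under other symbols, CHCHD1 rose and DAP3, PTCD3, AURKAIP1 and GADD45GIP1 were not called. CHCHD1, a small subunit protein, was at 8.77 and 8.55 FPKM under siNC, 10.9 and 10.3 under siOGT1, and 11.1 and 10.1 under siOGT2. Its change was 0.26 with each siRNA (limma adjusted p = 0.00661 and 0.00388), with all 4 siRNA libraries above the controls. DAP3, which binds GTP in the small subunit, was at 19.6 to 20.4 FPKM in all 6 libraries.

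The counts that follow stand beside 19.4% of all genes higher and 11.8% lower in the mean of both siRNAs, and an all-gene median of 0.04. Of 26 tested genes for assembly of the ribosome and modification of its RNA, 3 rose (11.5%) and none fell, with a median of 0.04. YBEY, an endonuclease, rose by 0.23 (limma adjusted p = 0.00597), RPUSD4, a pseudouridine synthase, by 0.18, and GTPBP6, a GTPase of the large subunit, by 0.12. Of 15 translation factors, 4 rose (26.7%) and 1 fell (6.67%). METAP1D, which trims the first methionine, rose by 0.28, GFM2, which splits the subunits, by 0.18 and OXA1L, which inserts proteins into the inner membrane, by 0.13. TACO1, an activator of COX1 translation, was at 1.9 and 1.67 FPKM under siNC, 0.671 and 0.955 under siOGT1, and 1.39 and 1.17 under siOGT2, a mean change of -0.46 (limma adjusted p = 0.00307). Of 20 genes for charging of transfer RNA, 3 rose (15%) and none fell, among them IARS2 (0.17) and KARS1 (0.12), whose product also serves the cytosol.

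Of 15 genes that make and process mitochondrial RNA, none was higher and 1 lower in the mean of both siRNAs by limma, and 3 had an unadjusted p under 0.05. The lower one was PNPT1, an RNA-degrading enzyme. PNPT1 went from 97.6 and 91.6 FPKM under siNC to 62.5 and 56.8 under siOGT1 and 45.8 and 41.2 under siOGT2, a mean change of -0.88 (limma adjusted p = 3.36e-06). The 13 messages that the ribosome translates were mostly called with siOGT2. Of the 13, 1 rose (7.69%) with siOGT1 and 11 (84.6%) with siOGT2, with medians of 0.08 and 0.25. Over all tested genes 9.51% were higher with siOGT1 and 22.1% with siOGT2, with medians of 0.03 and 0.05. The siOGT1 count is thus near the background. MT-CYB, cytochrome b, was at 1349 and 1347 FPKM under siNC, 1417 and 1465 under siOGT1, and 1647 and 1655 under siOGT2. The sum of the 13 messages was 105% of siNC with siOGT1 and 118% with siOGT2. That of the 78 ribosomal protein genes was 107% and 109%.

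For the proteins of the cytosolic ribosome the 2 siRNAs gave different counts. Of 78 tested cytosolic ribosomal protein genes, 6 rose (7.69%) and 1 fell (1.28%) with siOGT1, and 64 rose (82.1%) with siOGT2. The medians were 0.05 and 0.24. Over all tested genes 9.51% were higher and 8.1% lower with siOGT1, and 22.1% were higher with siOGT2. The all-gene medians were 0.03 and 0.05, so the siOGT1 rises are near the background. Between the siRNAs, 48 of those 78 (61.5%) were lower with siOGT1, at a median difference of -0.20. Over all genes 8.24% were lower, with a median of -0.01. The corresponding values for the 71 mitochondrial ribosomal genes were 5 lower (7.04%), near the share of all genes, and a median of -0.03. Whether the 2 lists differ in this was not tested.

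Of 23 tested genes of mitochondrial protein import, 6 rose (26.1%) and 1 fell (4.35%) in the mean, beside 19.4% and 11.8% of all genes. TOMM22, a receptor of the outer membrane, rose by 0.47 (limma adjusted p = 1.81e-05), and TIMM10, a chaperone between the membranes, changed by -0.73 (limma adjusted p = 2.28e-06). Of 8 tested regulators of mitochondrial biogenesis, 2 rose and 3 fell. NRF1 rose by 0.18 and the nuclear receptor ESRRA by 0.19. MYC was at 12.1 and 12.0 FPKM under siNC, 9.43 and 9.76 under siOGT1, and 8.64 and 8.59 under siOGT2, a mean change of -0.37 (limma adjusted p = 7.5e-05). The coactivator PPARGC1A changed by -0.44 and its relative PPRC1 by -0.12.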

How the data were processed

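RNA-seq libraries of KGN cells in 3 siRNA groups, 2 each, were compared. Reads were trimmed with cutadapt 1.15 and aligned to GRCh38 by HISAT2, per the submitters' processing notes; the sources used here do not state counting, strandedness or annotation. The authors deposited FPKM values, 1 column per library. Symbols came from a gene name table by Ensembl identifier. The genes with a mean of at least 1 FPKM were tested on log2(FPKM + 1) with limma 3.58.1 in R 4.3.3, 1 mean per group over all 6 libraries, with an intensity trend (3 residual and 6.31 prior degrees of freedom). The contrasts were each siRNA against siNC, their mean against siNC, and siOGT1 against siOGT2; a call is a Benjamini-Hochberg adjusted p under 0.05 over 10547 genes. The fit was tested on simulated data.

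Whole reads were recovered from the FPKM steps for 100% of tested genes and 95.59% of genes above 0 (tolerance 0.01 reads), with 768 to 977 reads for the median tested gene. They gave depth and 1 alternative. Exon sharing and lengths came from GENCODE release 29, and promoters from RefSeq. Genes were named by rank of level and of change among those called, and by list; complete groups are also listed. The genes and lists were chosen with earlier results of these data known. The alternatives covered the pseudocount, low-value filter, scaling, variance model, replicate block, groups fitted, recovered reads and each library left out.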

Additional observations from a re-analysis of the deposited data

Results flagged for a closer look

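The 6 genes below differed between the 2 OGT siRNAs by the direct test of siOGT1 against siOGT2 (limma, adjusted p under 0.05). They are 8.45% of the 71 tested MRPL and MRPS genes, against 16.6% of all tested genes called in that contrast. An effect of OGT knockdown read from either siRNA alone would differ for these 6 genes. Of the 6, MRPL52 alone kept its call in every alternative run. MRPL52 differed most, by -0.43 on the log2 scale (siOGT1 minus siOGT2), with means of 6.87 FPKM with siOGT1 and 9.6 with siOGT2. MRPL55 differed by -0.26 (3.71 and 4.64 FPKM), MRPS27 by -0.24 (5.74 and 6.94), MRPS18A by -0.23 (8.54 and 10.2) and MRPL33 by -0.13 (43.2 and 47.4). MRPS24 differed by 0.26 in the other direction (2.67 and 2.06 FPKM). OGT itself was at 13.3 FPKM with siOGT1 and 14.5 with siOGT2, a difference of -0.11 that did not pass (limma adjusted p = 0.123). The part of residual OGT in these differences was not tested.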

How the results depend on the processing

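No call on a single gene changed sign in any alternative. Of the 66 calls on MRPL and MRPS genes over the 4 contrasts, all 66 held with a pseudocount of 0.1, 62 with quantile normalization, 44 with a trimmed mean of log ratios, 43 with no low-value filter and 35 without siNC replicate 2. With siOGT1, 15 genes were called, 5 with no low-value filter, 9 with the trimmed mean and 8 with no intensity trend. The share of all genes called with siOGT1 fell too, from 17.6% to 6.65%, 14.7% and 13.8%. The difference between siRNAs gave 6 genes, and 3 with no filter or on recovered reads. Over all genes the share called was 16.6%, then 5.94% with no filter and 21.7% on recovered reads. Leaving out each library in turn gave 6 to 13 genes with siOGT1, 13 to 25 with siOGT2, 13 to 27 in the mean and 2 to 6 between siRNAs, against 15, 24, 21 and 6 with all. The fit to only the groups compared does not apply to the mean of both siRNAs. A minimum of 5 FPKM leaves no value for MRPS24 or MRPL55.

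Replicate numbers are not stated to pair libraries, and deviations of same-numbered libraries correlated across genes at -0.022, -0.026 and 0.049. With the replicate number as a block, 15 genes were called with siOGT1, 23 with siOGT2, 22 in the mean and 7 between siRNAs. Of all genes, 16.8%, 34.5%, 30% and 15.9% were then called.

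With 2 libraries per group, the spread rests on few values. Low genes such as MRPS17, with 62 to 100 reads, carry large counting error.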
